A study of Homo sapiens with 3 samples.

Results

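The integrins of colon epithelial cells were read in lentivirally transduced HT29 cells, a human colon cancer line. The genes named were ITGA2, ITGA3, ITGA5, ITGA6, ITGAV, ITGB1, ITGB4, ITGB5, ITGB6 and ITGB8. Every probe set that the platform annotation pairs with exactly 1 of these 10 genes was taken separately, which gave 28 of 54613 non-control probe sets and covered 9 genes. ITGB6 had no probe set of its own, since its 4 probe sets were annotated to a second gene as well and were left out. The study holds 3 arrays of total RNA: 2 labelled as replicates of HT29 cells carrying a miR-146a expression construct, and 1 of HT29 cells carrying the empty vector. Its comparison asks which transcripts differ when miR-146a is expressed. The labels do not say whether the transduced cells were clones or pools, nor whether the replicates were cultured apart. The p-values therefore reflect only how much these arrays vary, which may be technical. All cells were grown in DMEM with fetal bovine serum.

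Integrins are surface receptors made of 1 alpha and 1 beta subunit that tie the cytoskeleton to the extracellular matrix and signal in both directions. In epithelia, beta1 pairs with alpha2 to bind collagen, with alpha3 and alpha6 to bind laminin and with alpha5 to bind fibronectin, while beta4 pairs with alpha6 in hemidesmosomes. The alphav subunit pairs with beta1, beta5, beta6 or beta8, and its complexes with beta6 and beta8 are known for releasing active TGF-beta from its latent form. A subunit reaches the cell surface only with a partner, so subunit RNA does not measure the complex.

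The mature arms of the microRNA expressed from the construct are printed for their seeds, bases 2 to 8, in capitals, since the seed is what a microRNA uses to recognise a transcript. The sequences are RefSeq's on build GRCh38.p14, plus strand, where the 5p arm lies at chr5:160485372-160485393 and the 3p arm at chr5:160485408-160485429.
hsa-miR-146a-5p: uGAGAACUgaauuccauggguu
hsa-miR-146a-3p: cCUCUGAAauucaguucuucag
The level of the mature microRNA was not analysed here, so the labels alone say which arrays carry it.

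The deposited values are log2 signals made by RMA, so a difference of 1 is a 2-fold difference. Signals of different probe sets depend on their probes, so the ranking of a gene's probe sets by average signal, used below to pick its brightest, is not a ranking of transcript levels. The 3 arrays had medians between 5.12 and 5.14. Among the 27306 probe sets whose average signal lay above the median of all, 5.13 (the signal filter), the 2 miR-146a arrays differed from each other by a median of 0.07 and by no more than 0.27 for 95% of probe sets. Of the 28 integrin probe sets 17 lay above the filter, at least 1 for each of the 9 genes. All 12 colon epithelial markers were above the filter, with EPCAM at 12.93 and 12.96 in the miR-146a arrays, against 12.95 in the vector array. Markers of other cells were mostly low: 2 of 10 fibroblast, 3 of 8 endothelial and 2 of 8 leukocyte markers passed, and the pan-leukocyte marker PTPRC read 3.36 and 3.30 in the miR-146a arrays, against 3.43 in the vector array. The leukocyte marker LYZ, lysozyme, which intestinal cells also make, read 12.72 and 12.96 in the miR-146a arrays, against 12.95 in the vector array.

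Of the 28 integrin probe sets 15 lay below the vector in each miR-146a array and 6 lay above it in each, against 28.9% and 29.1% of all probe sets. ITGA6, ITGB1, ITGA2 and ITGB4 each had a probe set that was 1.40-fold to 1.79-fold lower in the miR-146a cells, beside another probe set of the same gene that differed by 0.13 or less on the log2 scale. ITGA3, ITGB5 and ITGB8 lay near the vector, ITGAV was slightly lower and ITGA5 slightly higher. The median difference over all 28 was -0.05, against 0.00 over all probe sets. In RNA from bulk cells, fewer cells carrying a transcript and less of it per cell cannot be told apart.

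**Figure D1:**
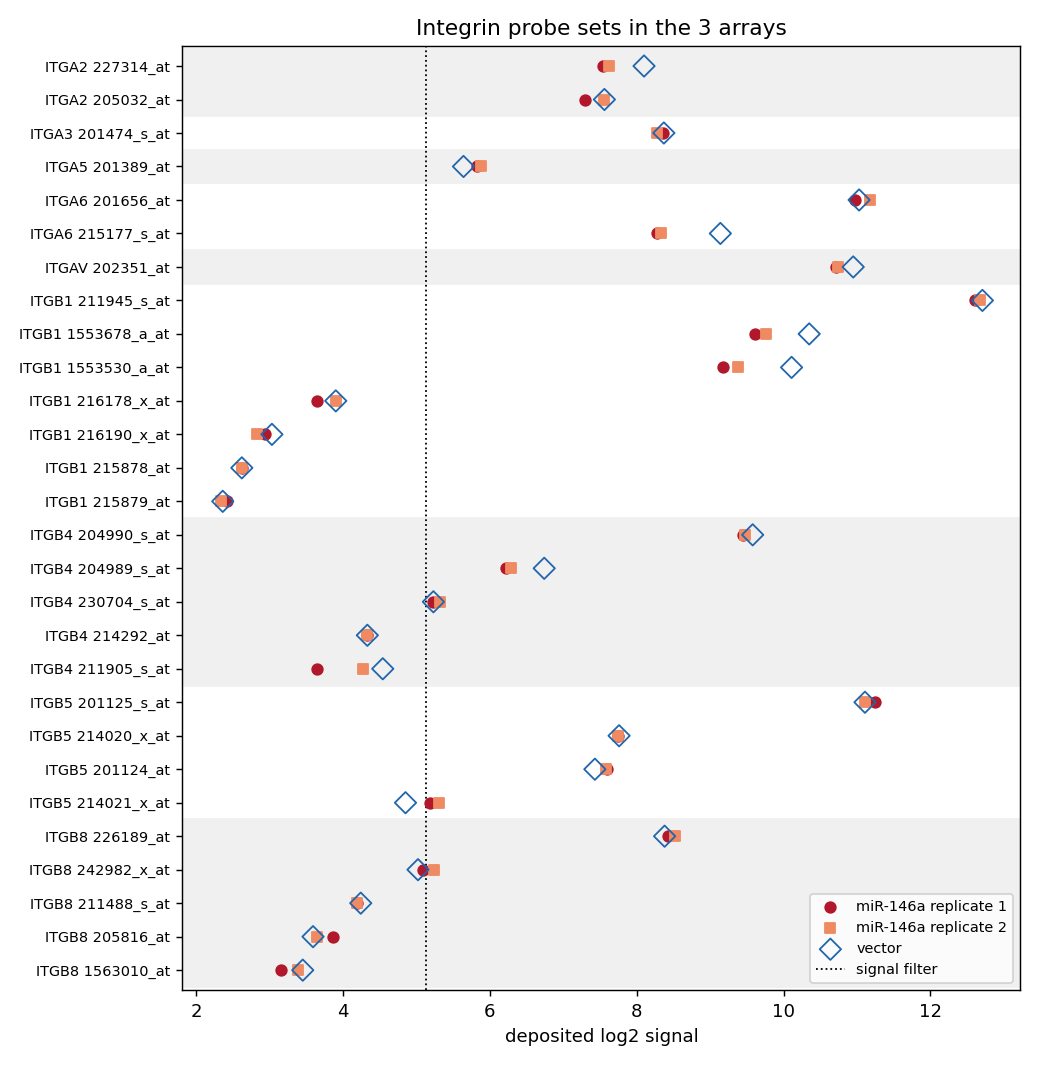
Deposited log2 signal (horizontal axis) of each integrin probe set (rows, grouped by gene) in both miR-146a arrays (filled symbols) and the vector array (open diamonds), with the signal filter of 5.13 as a dotted line. The vector symbol stands clear to the right for ITGA2 227314_at, ITGA6 215177_s_at, ITGB1 1553678_a_at and 1553530_a_at and ITGB4 204989_s_at, while most other rows overlap.

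By limma, with Benjamini-Hochberg adjustment over all 27306 probe sets tested, 0 of the 17 integrin probe sets passed an adjusted p of 0.05, as did 0.0% of all probe sets in either direction. The smallest adjusted p among them was 0.131. An unadjusted p under 0.05 was reached by 7 of the 17, against 23.4% of all tested. The fit has 1 residual degree of freedom, which comes from the miR-146a arrays, so the single vector array is taken to vary like them. On simulated data with tied replicates this setting called none of the planted differences. The simulated variances were drawn from the prior of the second setting described below, so this outcome does not weigh the usual setting. The count of 0 was the same after cyclic loess, which left 0 probe sets with equal replicates. With 1 residual degree of freedom a count of 0 does not show that the integrins were unchanged. By size, 2 integrin probe sets were at least 1.5-fold lower in both miR-146a arrays, against 0.485% of all probe sets and 0.688% of those above the filter, and 0 were at least 1.5-fold higher, against 0.293% and 0.447%. Both lay above the filter. On replicate 1 alone, a looser cut, the count of lower ones was 4, among them ITGB4 211905_s_at, which lay below the filter. The share of all probe sets at that cut was not analysed here, so the shares above do not apply to it.

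Of the 27306 probe sets tested, 3424 had exactly equal values in the 2 miR-146a replicates (tolerance 0). A second limma setting therefore took its variance prior only from probe sets whose replicates differ. Under it 5 of the 17 integrin probe sets passed, all lower (1 of ITGA2, 1 of ITGA6, 2 of ITGB1 and 1 of ITGB4), against 4.78% of probe sets called lower and 4.14% called higher. On simulated data with tied replicates, 63 of the 247 calls of the second setting were unchanged probe sets, more than its threshold allows. Without tied replicates, 36 of its 216 calls were unchanged probe sets, and the usual setting gave the same counts there. The adjusted p-values of the second setting, here and below, may therefore be too small. Its calls are given beside the usual ones and not in place of them.

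ITGB1 encodes beta1, the common partner of most alpha subunits, and had 7 probe sets. Its brightest, 211945_s_at, read 12.61 and 12.68 in the miR-146a arrays, against 12.71 in the vector array, a difference of -0.06. With the second limma setting the 95% confidence interval of that difference ran from -0.28 to 0.15. Both miR-146a arrays lay just below the vector, by less than the gap that 95% of probe sets show between replicates.

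The next ITGB1 probe sets gave another picture. Probe set 1553530_a_at read 9.17 and 9.38 in the miR-146a arrays, against 10.11 in the vector array. It was 1.78-fold lower, with a miR-146a SD of 0.146 (n = 2), a limma adjusted p of 0.213 and an adjusted p of 0.000226 with the second setting. Both miR-146a arrays were far below the single vector array. Probe set 1553678_a_at read 9.61 and 9.76 in the miR-146a arrays, against 10.35 in the vector array, 1.58-fold lower (limma adjusted p = 0.202, and 0.00103 with the second setting). Its replicate 2 stood at -0.58 from the vector, just short of 1.5-fold, so this probe set is not among the 2 counted by size. The 4 remaining ITGB1 probe sets averaged between 2.37 and 3.84, below the filter, with differences between -0.16 and 0.02.

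ITGA6 encodes alpha6, the laminin-binding subunit that pairs with beta4 and with beta1. Probe set 215177_s_at read 8.27 and 8.33 in the miR-146a arrays, against 9.14 in the vector array. It was 1.79-fold lower with a miR-146a SD of 0.044 (n = 2), a limma adjusted p of 0.131 and an adjusted p of 0.000111 with the second setting. Only 0.146% of probe sets above the filter had a lower difference. The other ITGA6 probe set, 201656_at, read 10.98 and 11.18 in the miR-146a arrays, against 11.03 in the vector array. There the vector lay between the replicates, and the mean difference was 0.05 (95% confidence interval -0.18 to 0.28 with the second setting).

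ITGB4 encodes beta4, which has an unusually long cytoplasmic tail that anchors keratin filaments through plectin. Its brightest probe set, 204990_s_at, read 9.45 and 9.48 in the miR-146a arrays, against 9.58 in the vector array, a difference of -0.11 (limma adjusted p = 0.252). Probe set 204989_s_at read 6.22 and 6.29 in the miR-146a arrays, against 6.74 in the vector array. It was 1.40-fold lower (limma adjusted p = 0.160, and 0.00643 with the second setting), with both miR-146a arrays below the vector. Probe set 230704_s_at, just above the filter, differed by 0.05. Of those below the filter 214292_at differed by -0.01, while 211905_s_at read 3.65 and 4.27 in the miR-146a arrays, against 4.54 in the vector array. Its replicates stood at -0.89 and -0.27 from the vector, so its difference is uncertain.

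ITGA2 encodes alpha2, the collagen-binding partner of beta1. Probe set 227314_at read 7.54 and 7.62 in the miR-146a arrays, against 8.10 in the vector array, 1.43-fold lower (limma adjusted p = 0.159, and 0.00406 with the second setting). Both miR-146a arrays were clearly below the vector. Probe set 205032_at read 7.30 and 7.55 in the miR-146a arrays, against 7.56 in the vector array. Its difference of -0.13 came from replicate 1, since replicate 2 was at -0.01.

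**Figure D2:**
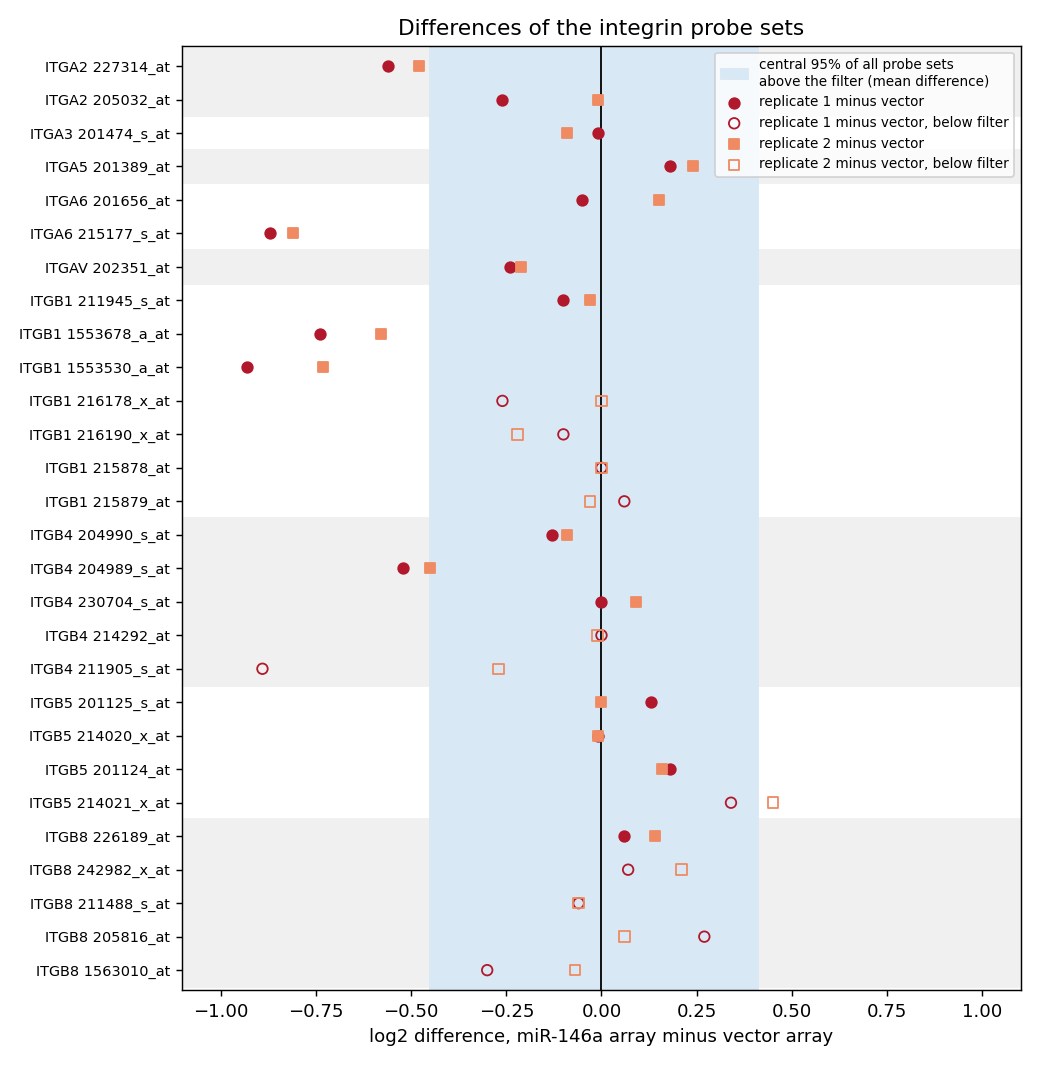
Log2 difference of each miR-146a array from the vector array (horizontal axis) for each integrin probe set (rows), filled above the signal filter and open below it. The shaded band holds the central 95% of mean differences of all probe sets above the filter, from -0.45 to 0.41; the mean differences of the 5 lowest rows above the filter, between -0.48 and -0.84, lie outside it.

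The remaining alpha subunits had 1 probe set each. ITGAV, the alphav subunit, read 10.71 and 10.74 in the miR-146a arrays, against 10.95 in the vector array. It was 1.17-fold lower, with the replicates close to each other, and did not pass limma (adjusted p = 0.169, and 0.201 with the second setting). ITGA5, the fibronectin-binding alpha5 subunit, read 5.82 and 5.88 in the miR-146a arrays, against 5.64 in the vector array. It was 1.16-fold higher and did not pass either (limma adjusted p = 0.225, and 0.237 with the second setting). ITGA3, the laminin-binding alpha3 subunit, read 8.36 and 8.27 in the miR-146a arrays, against 8.37 in the vector array, a difference of -0.05 (95% confidence interval -0.27 to 0.16 with the second setting). At this spread a change of ITGA3 smaller than these bounds was not detectable.

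The beta5 and beta8 subunits both pair with alphav. ITGB5, beta5, a vitronectin receptor subunit, had 3 probe sets above the filter with differences of -0.01, 0.06 and 0.17. The highest of these, 201124_at, read 7.60 and 7.58 in the miR-146a arrays, against 7.43 in the vector array (limma adjusted p = 0.160, and 0.373 with the second setting). Probe set 214021_x_at was just below the filter and read 5.18 and 5.30 in the miR-146a arrays, against 4.85 in the vector array, 1.32-fold higher. It was tested only in the limma fit without a filter, which it did not pass (adjusted p = 0.299). ITGB8, beta8, had 1 of its 5 probe sets above the filter, at 8.43 and 8.52 in the miR-146a arrays, against 8.38 in the vector array, a difference of 0.10. Its 4 other probe sets were below the filter, with differences between -0.18 and 0.17 that did not share a sign.

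The disagreement between probe sets was measured against all genes. Over the 5922 genes with at least 2 probe sets above the filter, the highest and lowest differences of a gene lay a median of 0.18 apart on the log2 scale, and 0.56 or less for 95% of genes. For ITGA6 this spread was 0.89, wider than for 99.6% of genes, and for ITGB1 it was 0.77, wider than for 98.8%. Among genes with as many probe sets the shares were 99.8% for ITGA6 and 99.0% for ITGB1. ITGB4 followed with 0.53 and ITGA2 with 0.38, while ITGB5 at 0.18 was at the middle of all genes. The gap was 0.83 and 0.96 for ITGA6 and 0.84 and 0.69 for ITGB1 in replicates 1 and 2. Both replicates are set against the same vector array, so these gaps are not independent of each other. Which part or isoform of a transcript each probe set reads was not analysed here.

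**Figure D3:**
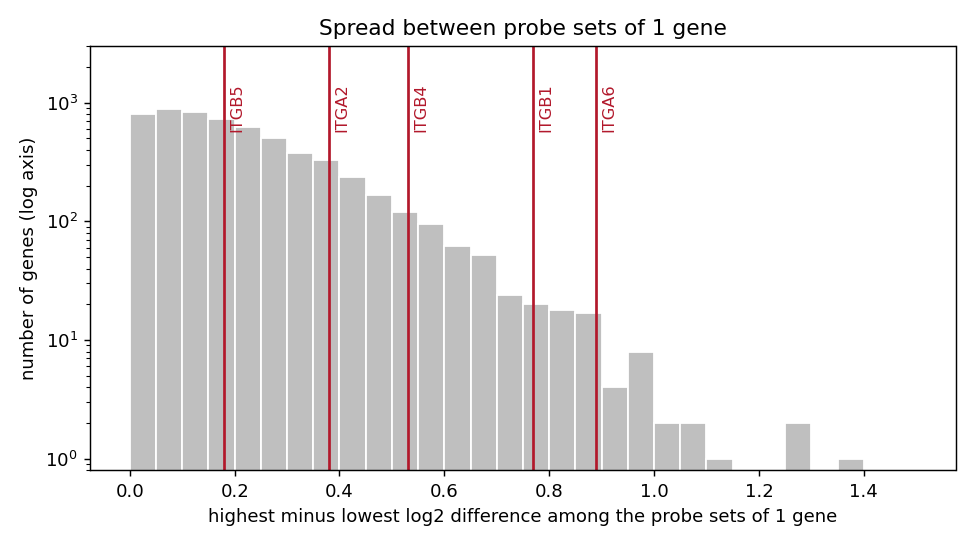
Number of genes (vertical log axis) by the distance between the highest and the lowest log2 difference among the probe sets of 1 gene above the filter (horizontal axis), for 5922 genes. Red lines mark the 5 integrin genes with at least 2 such probe sets; ITGA6 at 0.89 and ITGB1 at 0.77 stand in the right tail and ITGB5 at 0.18 in the middle.

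In 3 of these genes, ITGA6, ITGB1 and ITGB4, the brightest probe set lay near the vector and a dimmer one was lower; in ITGA2 the brighter one was lower. Over all genes with at least 2 probe sets above the filter, 0.22% of the brightest probe sets were at least 1.5-fold lower in both miR-146a arrays and 0.473% at least 1.5-fold higher. Of the other probe sets of those genes 0.987% were lower and 0.316% higher by that size. In the same arrays the control probe sets for the 5′ part of ACTB differed by -0.23 and those for the 5′ part of GAPDH by -0.31 from the vector, while their 3′ probe sets differed by 0.04 and -0.02. The part of this 5′ difference in the integrin results was not tested.

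With 1 probe set per gene, the brightest, 5 of the 9 integrin genes were lower and 2 higher in both arrays, against 27.0% and 33.1% of 19777 genes. All 9 lay above the filter, while the 19777 genes include those below it. Of the brightest probe sets of genes with at least 2 above the filter, 29.8% were lower and 42.0% higher in both arrays. The differences were -0.52 for ITGA2, -0.22 for ITGAV, -0.11 for ITGB4, -0.06 for ITGB1, -0.05 for ITGA3, 0.05 for ITGA6, 0.06 for ITGB5, 0.10 for ITGB8 and 0.21 for ITGA5. At this level limma called 0 of the 9 (0.0% of the 12444 genes above the filter), with 2, ITGA2 and ITGAV, at an unadjusted p under 0.05, against 23.6% of genes. The second setting called 1, ITGA2, as lower (adjusted p = 0.00546), against 2.36% of genes. Averaging a gene's probe sets above the filter instead gave -0.52 for ITGB1, -0.39 for ITGA6, -0.33 for ITGA2 and -0.18 for ITGB4, so the choice of probe set decides whether ITGB1 and ITGA6 read as lower.

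Genes that work with integrins were taken from 6 lists, again with the brightest probe set per gene. Of all genes, 33.1% were higher and 27.0% lower in both arrays, with a median of 0.00. Limma called 0 members of any list, as it called 0.0% of all genes. The second setting, quoted below, called 4.76% of genes above the filter as higher and 2.36% as lower.

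**Figure D4:**
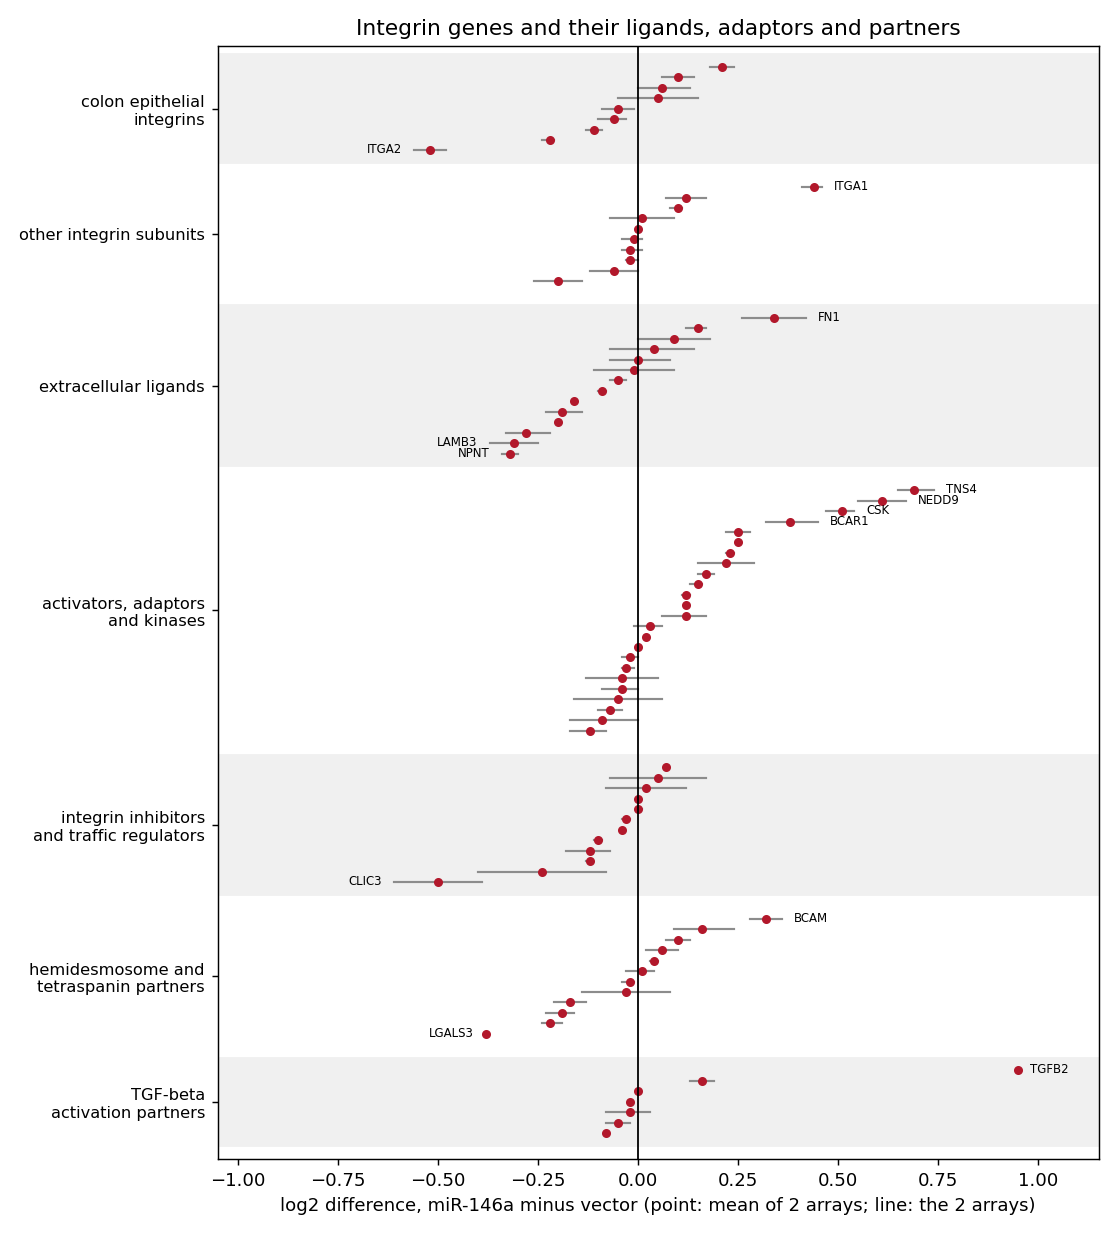
Log2 difference from the vector (horizontal axis) of the brightest probe set of each gene above the filter, for the colon epithelial integrins and 6 lists of related genes; points are means of both miR-146a arrays and lines join the 2 arrays. Genes at least 0.30 from the vector are named, from ITGA2 at -0.52 to TGFB2 at 0.95.

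Among the other integrin subunits, 16 genes were measured, 10 above the filter; 4 were higher and 2 lower in both arrays, and their median was 0.00. ITGA1, another collagen-binding partner of beta1, read 8.15 and 8.19 in the miR-146a arrays, against 7.73 in the vector array. It was 1.35-fold higher (limma adjusted p = 0.132, and 0.0125 with the second setting). Its collagen-binding relative ITGA2 differed by -0.52 in its brightest probe set but by only -0.13 in its other one. ITGB7, a leukocyte beta subunit, differed by -0.20, ITGA8 by 0.12 and ITGAE, an alpha subunit that binds E-cadherin, by 0.10. None of these 3 passed either setting. ITGB2, the leukocyte beta2 subunit, stayed below the filter in all 3 of its probe sets.

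Of 17 ligand genes measured, 8 read below the vector and 3 above it in both arrays; the median was -0.04. FN1, fibronectin, the ligand of alpha5beta1 and alphav integrins, differed most upward. Its brightest probe set read 7.35 and 7.19 in the miR-146a arrays, against 6.93 in the vector array, 1.27-fold higher (limma adjusted p = 0.337, and 0.0541 with the second setting). Its 3 other probe sets above the filter were higher as well, by 0.47 to 0.61. Over all probe sets all 3 passed the second setting (adjusted p between 0.00131 and 0.00679) but not the usual limma setting (adjusted p between 0.131 and 0.133). Of the laminin chains, LAMB3, part of laminin-332, differed by -0.31 and LAMB1 by -0.28, with neither past either setting. The 6 other laminin chains measured differed by between -0.20 and 0.09 in their brightest probe sets. A dimmer LAMB1 probe set differed by -0.35, with an adjusted p of 0.0369 in the second setting over all probe sets. NPNT, nephronectin, a ligand of alpha8beta1, read 8.55 and 8.59 in the miR-146a arrays, against 8.89 in the vector array, a difference of -0.32. It passed the second setting with 1 probe set per gene (adjusted p = 0.0467) but not over all probe sets (0.0565). The usual limma setting did not call it (adjusted p = 0.156 with 1 probe set per gene).

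The activators, adaptors and kinases gave 14 of 29 genes above the vector and 7 below it in both arrays; the median was 0.02. TNS4, a short tensin that binds the beta1 tail and lacks the actin-binding part of other tensins, read 10.31 and 10.23 in the miR-146a arrays, against 9.57 in the vector array. It was 1.62-fold higher (limma adjusted p = 0.140, and 0.00122 with the second setting), the 1 gene of this list at least 1.5-fold apart in both arrays, against 0.42% of all genes higher and 0.212% lower by that size. A dimmer TNS4 probe set above the filter differed by 0.12. NEDD9, a docking protein of the p130Cas family, was 1.53-fold higher (adjusted p = 0.00283 with the second setting), with other probe sets at 0.24 and 0.26. CSK, the kinase that restrains Src family kinases, read 10.05 and 9.98 in the miR-146a arrays, against 9.51 in the vector array, 1.42-fold higher (adjusted p = 0.00602 with the second setting). BCAR1, p130Cas itself, was 1.30-fold higher (adjusted p = 0.0273 with the second setting), while its other probe set differed by -0.18. For TNS4 and NEDD9 the size therefore depends on the probe set, as it does for the integrins, and for BCAR1 the direction does.

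Of 15 inhibitors and traffic regulators, 8 lay under the vector and 2 over it in both arrays; the median was -0.03. CLIC3, which acts in recycling of active alpha5beta1 from late endosomes, read 7.03 and 6.81 in the miR-146a arrays, against 7.43 in the vector array, 1.42-fold lower (limma adjusted p = 0.317, and 0.0141 with the second setting). DAB2, a clathrin adaptor for integrins, differed by -0.24 with replicates at -0.40 and -0.08. RAB11A, a GTPase of recycling endosomes, differed by -0.10 and SNX17, a sorting nexin that returns beta1 to the surface, by -0.12, and none of the last 3 passed either setting.

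The hemidesmosome and tetraspanin partners split evenly, with 6 of 13 genes higher and 5 lower in both arrays and a median of 0.01. LGALS3, galectin-3, read 10.99 and 10.98 in the miR-146a arrays, against 11.37 in the vector array, 1.30-fold lower (limma adjusted p = 0.118, and 0.0215 with the second setting). A dimmer probe set differed by 0.58 the opposite way (limma adjusted p = 0.131, and 0.00175 with the second setting, over all probe sets). The direction for LGALS3 therefore depends on the probe set. CD9, a tetraspanin partner of beta1 integrins, likewise differed by -0.19 and by 0.77 in its 2 probe sets above the filter. The higher one had replicates at 1.01 and 0.53 (limma adjusted p = 0.419, and 0.00319 with the second setting, over all probe sets). BCAM, a receptor for laminin alpha5, differed by 0.32 (adjusted p = 0.0515 with the second setting). KRT5, a basal keratin, differed by -0.22 and read near the filter.

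Of 9 genes for latent TGF-beta and its carriers, 2 read above the vector and 5 below it in both arrays; the median was -0.02. TGFB2 read 6.53 in both miR-146a arrays, against 5.58 in the vector array. It was 1.94-fold higher (limma adjusted p = 0.118, and 0.000118 with the second setting), the largest difference in the 6 lists at this level, and its 4 other probe sets were below the filter, with differences between -0.10 and 0.54. TGFB1 differed by -0.05 in its brightest probe set and by 0.21 in a dimmer one, and TGFB3 by -0.02; their latent forms carry the RGD site that alphavbeta6 and alphavbeta8 bind, which that of TGFB2 lacks. LTBP3, a latent TGF-beta binding protein, differed by 0.16 and LTBP2 by -0.08.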

How the data were processed

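Total RNA of transduced HT29 cells was labelled with biotin for Affymetrix arrays, per the labels. The deposited table gives 1 log2 value per probe set and array, made by the authors with RMA per the submitters' processing notes (version not stated there). Groups came from the array titles, no array was left out, and 0 columns were unused. Probe sets were named by the platform annotation: 41091 had 1 gene, 1801 several and 11721 none. Every non-control probe set with an average of both group means above 5.13 was fitted with limma 3.58.1 in R 4.3.3, as a two-sided test adjusted by Benjamini-Hochberg at 0.05. The second setting replaced only the variance prior. Both were tested on simulated data with known differences, whose variances were drawn from the prior of the second setting. With tied replicates the usual prior called no planted difference. The second recovered most, but 63 of its 247 calls were unchanged probe sets, more than its threshold allows. Differences are miR-146a minus vector, and SDs are of the 2 miR-146a arrays, whose number limits precision. The members and lists were chosen with earlier results of these data known, so none is independent support. All integrin probe sets are accounted for. Of each other list, genes called or at least 1.5-fold apart in both arrays are named, and otherwise up to 4 by the smaller of their 2 array differences; TGFB1, ITGB2 and the genes under other observations were chosen after their values were seen. Genes of a list with no probe set of their own were not analysed here. Alternatives were other filters, priors, normalizations, folds and probe set rules, and leaving out either miR-146a array.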

Additional observations from a re-analysis of the deposited data

How the results depend on the processing

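The calls depend on the variance prior more than on any other choice tried. Limma called 0 of the integrin probe sets tested under the usual prior, without a filter, with a filter at percentile 70, with an intensity trend, with a robust prior and after quantile normalization or cyclic loess, with smallest adjusted p-values between 0.115 and 0.155, and 5 with the prior from unequal replicates. Leaving out a miR-146a array leaves no residual degree of freedom, so no limma test was run without one. With either miR-146a array alone, 2 to 4 probe sets were at least 1.5-fold lower (4 on replicate 1 without replicate 2). That is a looser cut, and its share of all probe sets was not analysed here. In both arrays the count at least 1.5-fold lower was 2 after quantile normalization and 3 after cyclic loess. At a log2 difference of 0.32 it was 5 lower, against 2.85% of all probe sets and 3.99% of those above the filter. It was 1 higher at that cut, against 2.39% and 3.54%. At 2-fold it was 0 lower, against 0.0183% and 0.0293%. Between 15 and 17 probe sets were lower and between 6 and 9 higher under all these normalizations and omissions, and the median difference ran from -0.06 to -0.02. The shares of all probe sets under these normalizations and omissions were not analysed here. Neither normalization moved an integrin probe set by more than 0.04, and leaving out an array moved one by at most 0.31 (ITGB4 211905_s_at, below the filter). No paired analysis was possible because there was a single vector array for 2 miR-146a arrays. Without replicates of the vector, and with signal below the filter in 11 of 28 probe sets, small differences cannot be told from array effects.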

Other observations

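The following genes were chosen after their values were seen, most of them because their probe sets disagree. PTK2, the focal adhesion kinase, had 4 probe sets above the filter. The brightest, 208820_at, read 11.40 and 11.48 in the miR-146a arrays, against 11.48 in the vector array, a difference of -0.04. The other 3 differed by -0.35, -0.37 and -0.60. The lowest of them, 241453_at, read 8.74 and 8.77 in the miR-146a arrays, against 9.36 in the vector array, 1.52-fold lower (limma adjusted p = 0.131, and 0.00139 with the second setting).

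PLEC, plectin, which links beta4 to keratin filaments, differed by 0.01 in 201373_at, while 216971_s_at read 6.03 and 6.30 in the miR-146a arrays, against 6.70 in the vector array (limma adjusted p = 0.354, and 0.00795 with the second setting). DST, whose BPAG1e isoform is the other plakin of hemidesmosomes, differed by -0.17 in its brightest probe set by -0.33 in 216918_s_at, by 0.34 in 232098_at and by -0.55 in 204455_at, which read 7.28 and 7.29 in the miR-146a arrays, against 7.84 in the vector array. FERMT1, kindlin-1, a coactivator of beta1 and beta3 integrins, was higher in all 3 of its probe sets above the filter, by 0.22, 0.26 and 0.36, so there the probe sets share a direction. LYZ differed by -0.11 in its brightest probe set and by -0.72 in 1555745_a_at, which read 11.04 and 11.10 in the miR-146a arrays, against 11.80 in the vector array.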
